A study of Mus musculus with 75 samples.

Results

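The oxidative phosphorylation subunits described here are 48 nuclear genes that encode subunits of the respiratory chain complexes, out of 19147 genes measured on a mouse microarray. A rule that reads only symbols, set with earlier results of these data known, chose them. It takes every gene of the array annotation whose symbol starts with Nduf followed by a, b, c, s or v and a digit, the genes Sdha, Sdhb, Sdhc and Sdhd, every symbol that starts with Uqcr, and every symbol that starts with Cox4, Cox5, Cox6 or Cox7 followed by a, b or c. By complex these are 26 genes of complex I, 4 of complex II, 7 of complex III and 11 of complex IV. The rule reads symbols and not function, so Ndufa4, now assigned to complex IV, is counted in complex I, the paralogs Ndufa4l2, Ndufa11b, Cox6b2 and Cox7b2 are members, and Cox4i1, Cox8a, Cyc1 and Ndufab1 are not.

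RNA of liver and of epididymal fat, a white fat depot, was measured in male mice on 75 arrays, 39 of liver and 36 of fat. Homozygous CB1-/- mice, which lack the cannabinoid receptor 1 gene in the whole body, and control littermates, both back-crossed to C57BL/6, ate chow (13% of calories as fat) or high-fat food (59.4%) from the age of 2 months, for 14 weeks. They then received AM251, a CB1 inverse agonist, at 10 mg/kg or its methylcellulose vehicle by gavage on each of 2 days, and tissue was taken on day 3. Tissue, diet, genotype and treatment gave 16 groups of 5 arrays, except 3 arrays each for fat of chow-fed knockouts on AM251 and of high-fat-fed knockouts on vehicle, and 4 for liver of high-fat-fed knockouts on vehicle. Every mouse, the vehicle groups included, was gavaged.

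Complexes I to IV sit in the inner mitochondrial membrane and pass electrons from NADH and succinate to oxygen. Complex I oxidizes NADH and complex II, which is also the succinate dehydrogenase of the tricarboxylic acid (TCA) cycle, oxidizes succinate. Both hand their electrons to ubiquinone, complex III passes them on to cytochrome c, and complex IV reduces oxygen. Complexes I, III and IV pump protons as they do so, and ATP synthase uses that gradient. Liver and brown fat are rich in mitochondria, whereas white adipocytes hold few and thin ones beside the lipid droplet. Complexes I, III and IV combine nuclear and mitochondrial gene products, while all subunits of complex II are nuclear.

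The promoters of the succinate dehydrogenase genes Sdha and Sdhb and of the Rieske protein gene Uqcrfs1 are shown because these members were higher in fat of knockouts in several comparisons below, and that of Cox6a1 because it holds the single match to the full motif of nuclear respiratory factor 1 (NRF1) among the members. Each sequence is the 250 bases before the gene's start, from RefSeq on build GRCm38.p6, read 5′ to 3′ on the gene's strand, with matches to the NRF1 motif or its core in capitals. The windows are chr13:74350241-74350490 (minus strand) for Sdha, chr4:140961021-140961270 (plus strand) for Sdhb, chr13:30545317-30545566 (minus strand) for Uqcrfs1 and chr5:115348959-115349208 (minus strand) for Cox6a1.
Sdha: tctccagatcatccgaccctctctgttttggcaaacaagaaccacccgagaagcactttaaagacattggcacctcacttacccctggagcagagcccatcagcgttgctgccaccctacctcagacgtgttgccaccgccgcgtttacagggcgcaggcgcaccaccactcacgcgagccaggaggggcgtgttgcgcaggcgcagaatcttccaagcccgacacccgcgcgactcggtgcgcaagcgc
Sdhb: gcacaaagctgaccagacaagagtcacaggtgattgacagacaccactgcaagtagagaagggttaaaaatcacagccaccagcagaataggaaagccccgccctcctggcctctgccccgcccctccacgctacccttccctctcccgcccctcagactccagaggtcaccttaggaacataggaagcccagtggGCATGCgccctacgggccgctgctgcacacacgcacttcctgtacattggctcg
Uqcrfs1: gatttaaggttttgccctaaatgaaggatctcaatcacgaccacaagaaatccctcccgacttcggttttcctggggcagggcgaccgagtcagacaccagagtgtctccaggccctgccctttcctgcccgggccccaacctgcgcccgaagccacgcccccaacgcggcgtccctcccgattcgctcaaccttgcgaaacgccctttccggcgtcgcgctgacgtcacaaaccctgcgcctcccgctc
Cox6a1: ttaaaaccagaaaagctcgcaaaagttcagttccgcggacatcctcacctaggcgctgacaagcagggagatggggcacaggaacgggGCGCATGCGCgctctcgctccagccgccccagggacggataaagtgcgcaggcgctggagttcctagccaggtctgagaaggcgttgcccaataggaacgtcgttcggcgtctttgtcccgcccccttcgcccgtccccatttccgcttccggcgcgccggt

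A window was found for 38 of the 48 members, and 39 windows were searched on both strands. Sdhc, Ndufs1, Uqcrc2 and Cox6a2 had no window in the table used here. The full NRF1 motif, shown in capitals in Cox6a1, lay in 1 member window (2.56%) against 0.782% of the 32851 windows of all genes. Its core GCATGC, which lies inside the full motif, was found in 4 member windows (10.3%; Ndufa6, Ndufa8, Sdhb and Cox6a1) against 6.7%. The ETS motif CCGGAAGT lay in 2 (5.13%; Uqcr11 and Uqcrh) against 2.88%. The YY1 motif AAGATGGC and the estrogen-related receptor motif TCAAGGTCA were found in 0 member windows, against 1.56% and 0.387% of all windows. A match describes letters in this window and is no measure of binding.

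All values are log2 of the intensity that the authors deposited after RMA (robust multi-array average), for the probe set with the highest mean per gene and tissue. Each array's median intensity lay between 25.8 and 28.7 in liver and between 44.3 and 48 in fat, and an array's mean correlation with the others of its tissue lay between 0.963 and 0.991 in liver and between 0.977 and 0.990 in fat. The lowest liver value was that of array 17 of the chow-fed knockouts on vehicle. All 11 hepatocyte markers lay above the median gene in liver and all 10 adipocyte markers in fat. In the other tissue these were 2 of 11 hepatocyte markers in fat and 6 of 10 adipocyte markers in liver, so the adipocyte list separates the tissues less well. In fat, the summed intensity of 8 epididymis markers was 12406 on array 36 of the high-fat wild-type AM251 group, 2042 on array 3 of the high-fat wild-type vehicle group, and lower on every other array. Cnr1, the gene of CB1, was not lower in knockouts: its log2 intensity was 5.51 to 6.09 in 20 wild-type livers, 5.57 to 6.13 in 19 knockout livers, 5.03 to 8.02 in 20 wild-type fat samples and 4.95 to 7.33 in 16 knockout fat samples. Where its probes lie relative to the deleted part is not given in the sources used here, so Cnr1 checks nothing and the genotypes are those of the labels.

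Most members were bright in both tissues. Ndufa11b, Ndufa13, Cox6a2, Cox6b2 and Cox7a1 lay near or below the median gene in both, and Ndufa4l2 lay near it in liver. A probe set's intensity depends on its probes, so levels are compared between arrays for one gene and not between genes. The log2 mean of 43 members in liver and 42 in fat lay above the median gene (5.44 in liver and 6.32 in fat). Cox7a2, Cox7b and Cox7b2 were among the dimmest genes in both tissues, below 3.92 in liver and 4.46 in fat, and their values carry little signal. The means of the 8 groups spread further in fat than in liver in each complex. The median member's group means spanned 0.37 on the log2 scale in fat and 0.23 in liver, against 0.33 and 0.31 for the median of all genes. In fat the span was 0.73 for complex II, 0.46 for complex III, 0.37 for complex I and 0.26 for complex IV. In liver it was 0.32, 0.20, 0.24 and 0.22 in the same order.

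The widest spans in fat belonged to Uqcrc2, a core protein of complex III, Sdhc, a membrane anchor of complex II, Ndufs1, the largest iron-sulphur subunit of complex I, and Cox7a1, the heart and muscle form of a complex IV subunit. Uqcrc2 ran from 9.89 in high-fat-fed wild-type mice on AM251 to 10.92 in chow-fed knockouts on AM251, and Sdhc from 10.78 to 11.81 between the same groups. Ndufs1 ran from 9.71 to 10.67 between them. Cox7a1 was ordered differently, with its lowest mean (6.21) in chow-fed knockouts on AM251 and its highest (7.10) in high-fat-fed wild-type mice on vehicle. After each group's mean was removed, the 4 complex II genes had a median pairwise correlation of 0.67 over the 36 fat arrays, against 0.31 in complex I, 0.33 in complex III and 0.09 in complex IV. Complex IV holds the dim genes Cox7a2, Cox7b and Cox7b2, and its Cox6a2, Cox6b2 and Cox7a1 lay near the median gene in fat. All 4 complex II genes lay at percentile 97.2 of the genes or higher, so the complexes are not compared at like signal. These arrays share the groups' size and each array's own scaling, and the correlation is a description.

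**Figure D1:**
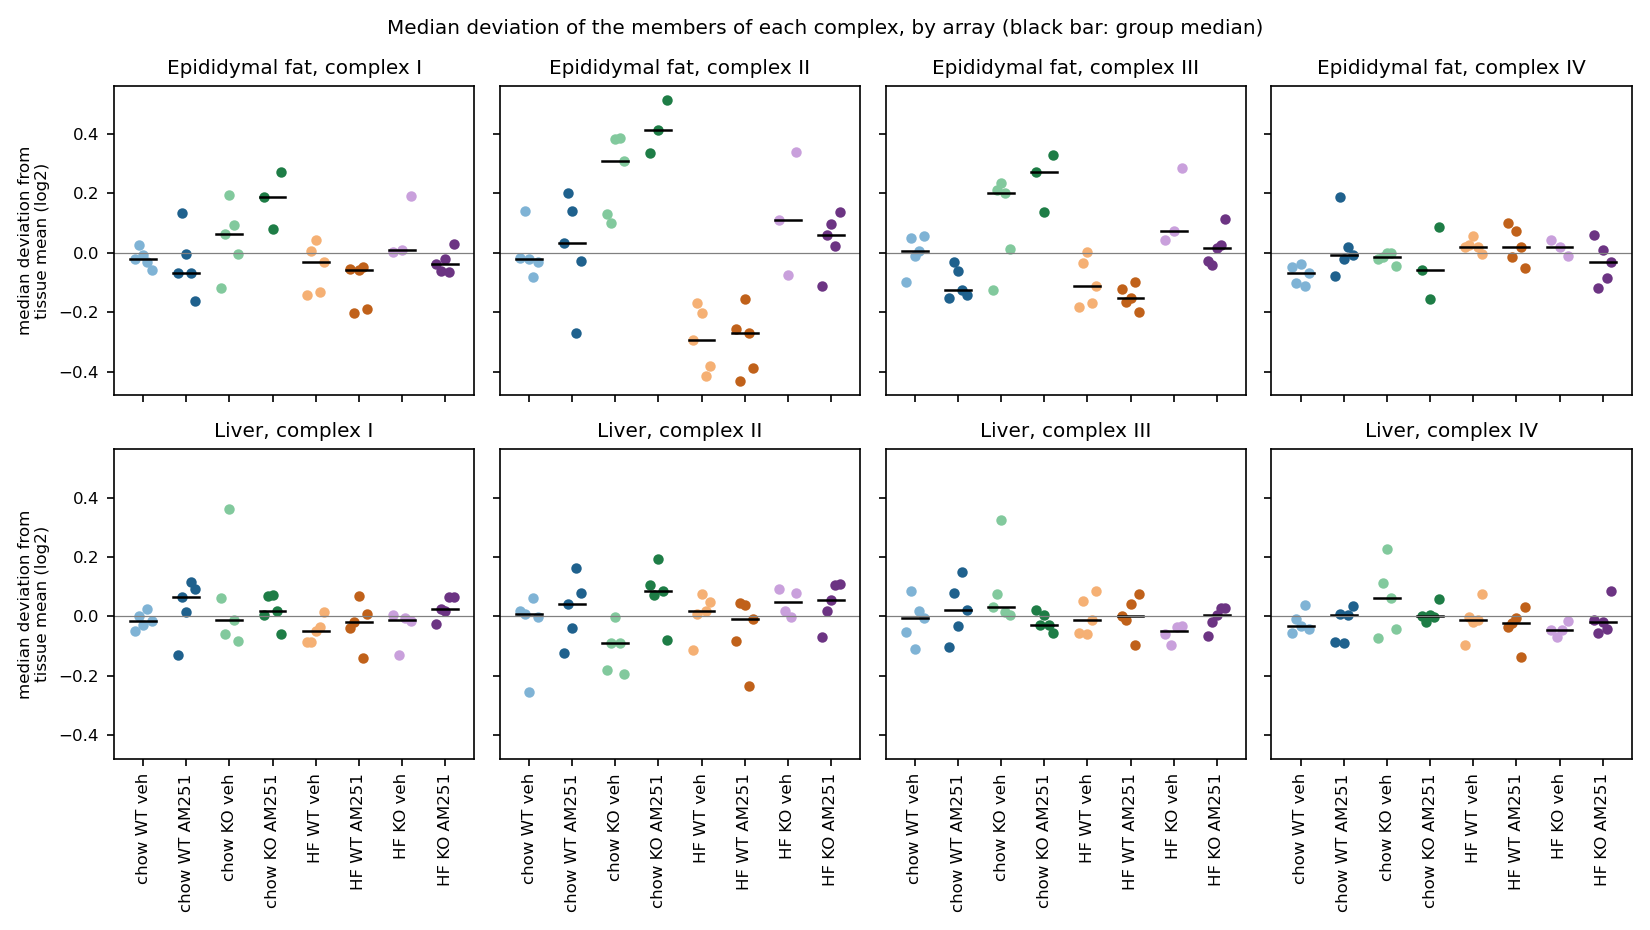
Median deviation of each complex's members from their mean in the tissue (log2, y axis), for every array in the 8 groups of fat and of liver (x axis), with 1 point per array and a bar at the group's median. In fat, complex II lay between -0.42 and -0.17 in the high-fat wild-type vehicle arrays and between 0.34 and 0.51 in the chow knockout AM251 arrays, while complex IV lay between -0.15 and 0.19 on every array.

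The first comparison asked how the high-fat diet changed the subunits in fat of wild-type mice on vehicle. Genes of complexes I, II and III were among those that fell, and the muscle isoforms Cox6a2 and Cox7a1 of complex IV rose. 7 members fell (Uqcrfs1, Sdhc, Sdha, Uqcrc1, Ndufa10, Ndufs1 and Ndufa5) and 4 rose (Cox6a2, Cox7a1, Ndufa8 and Ndufa13). The 11 of 48 stand beside 24.5% of all genes called in this comparison, so the count of members is near the background. Differences were tested with limma over all groups of the tissue, adjusted over 19147 genes by the Benjamini-Hochberg method, and are given as log2 change ± standard error.

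Sdhc read 11.42, 11.52, 11.49, 11.22 and 11.25 in the chow-fed wild-type vehicle fat and 10.95, 10.9968, 10.89, 10.58 and 10.62 in the high-fat-fed fat. Every high-fat array lay below every chow array, and Sdhc fell by 0.57 ± 0.115 (a percent change of -32.7% in intensity, adjusted p = 0.000333). Sdha, the flavoprotein that binds succinate, read 12.29, 12.36, 12.30, 12.25 and 12.32 on chow and 11.82, 12.06, 12.05, 11.83 and 11.91 on high fat. The groups did not overlap, and Sdha fell by 0.37 ± 0.0792 (adjusted p = 0.000593). Sdhb, the iron-sulphur subunit, and Sdhd, the other membrane anchor, did not pass the test, at -0.17 each (adjusted p = 0.257 and 0.249). The median change of the 4 complex II genes was -0.27, against -0.02 for all members and 0.02 for all genes.

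Uqcrfs1, the Rieske iron-sulphur protein of complex III, had the smallest p of the members. It read 11.51, 11.59, 11.50, 11.55 and 11.55 on chow and 10.97, 11.12, 11.09, 11.0021 and 11.03 on high fat. The 2 ranges lay far apart compared with the spread within either group, and Uqcrfs1 fell by 0.50 ± 0.0815 (a percent change of -29.1%, adjusted p = 2.77e-05). The core protein Uqcrc1 read 12.01, 12.14, 11.95, 12.22 and 12.03 on chow and 11.78, 11.70, 11.65, 11.81 and 11.86 on high fat. It fell by 0.31 ± 0.0761 with no overlap (adjusted p = 0.00263). Its partner Uqcrc2 did not pass in this comparison.

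In complex I the changes went both ways. Ndufs1 read 10.10, 10.08, 10.06, 10.21 and 10.26 on chow and 9.60, 9.94, 9.88, 9.79 and 9.65 on high fat, without overlap, and fell by 0.37 ± 0.096 (adjusted p = 0.00442). Ndufa10, an accessory subunit of the membrane arm, fell by 0.38 ± 0.099 (adjusted p = 0.00387), with values of 12.06 to 12.25 on chow and 11.69 to 11.86 on high fat. Ndufa5, an accessory subunit of the matrix arm, fell by 0.25 ± 0.0899 with overlapping groups (adjusted p = 0.0371). Ndufa8, an accessory subunit on the intermembrane side, moved up instead. It read 11.47, 11.46, 11.52, 11.34 and 11.29 on chow and 11.74, 11.71, 11.93, 11.84 and 11.92 on high fat, a rise of 0.41 ± 0.0783 with no overlap (adjusted p = 0.000156). Ndufa13, an accessory subunit also known as GRIM-19, rose by 0.31 ± 0.0754 (adjusted p = 0.0021). The median over the 26 complex I genes was -0.04.

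Complex IV exists with tissue-specific isoforms of some subunits, and the isoforms did not move alike. Cox6a2, the heart and skeletal muscle form of subunit 6a, read 6.39, 6.33, 6.46, 6.34 and 6.14 on chow and 6.86, 6.65, 6.91, 7.34 and 7.04 on high fat. The groups did not overlap, and Cox6a2 rose by 0.63 ± 0.113 (54.4%, adjusted p = 8.79e-05). Cox6a1, the form found in most tissues, read 12.45, 12.57, 12.53, 12.58 and 12.65 on chow and 12.61, 12.57, 12.58, 12.61 and 12.59 on high fat, a difference of 0.04 (adjusted p = 0.747). Cox7a1, the muscle and brown fat form of subunit 7a, read 6.52, 6.46, 6.58, 6.42 and 6.23 on chow and 7.05, 6.95, 7.32, 7.14 and 7.04 on high fat. It rose by 0.66 ± 0.188 with no overlap (57.6%, adjusted p = 0.00922). Cox7a2 and Cox7a2l, the other members of that family, read -0.03 and 0.15 and did not pass (adjusted p = 0.806 and 0.347). The pair Cox6b1 and Cox6b2 stood at 0.07 and -0.02 (adjusted p = 0.484 and 0.923). Cox6a2 and Cox7a1 averaged 6.59 and 6.57 over the fat arrays, close to the median gene (6.32). The part of background signal in their changes was not tested.

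**Figure D2:**
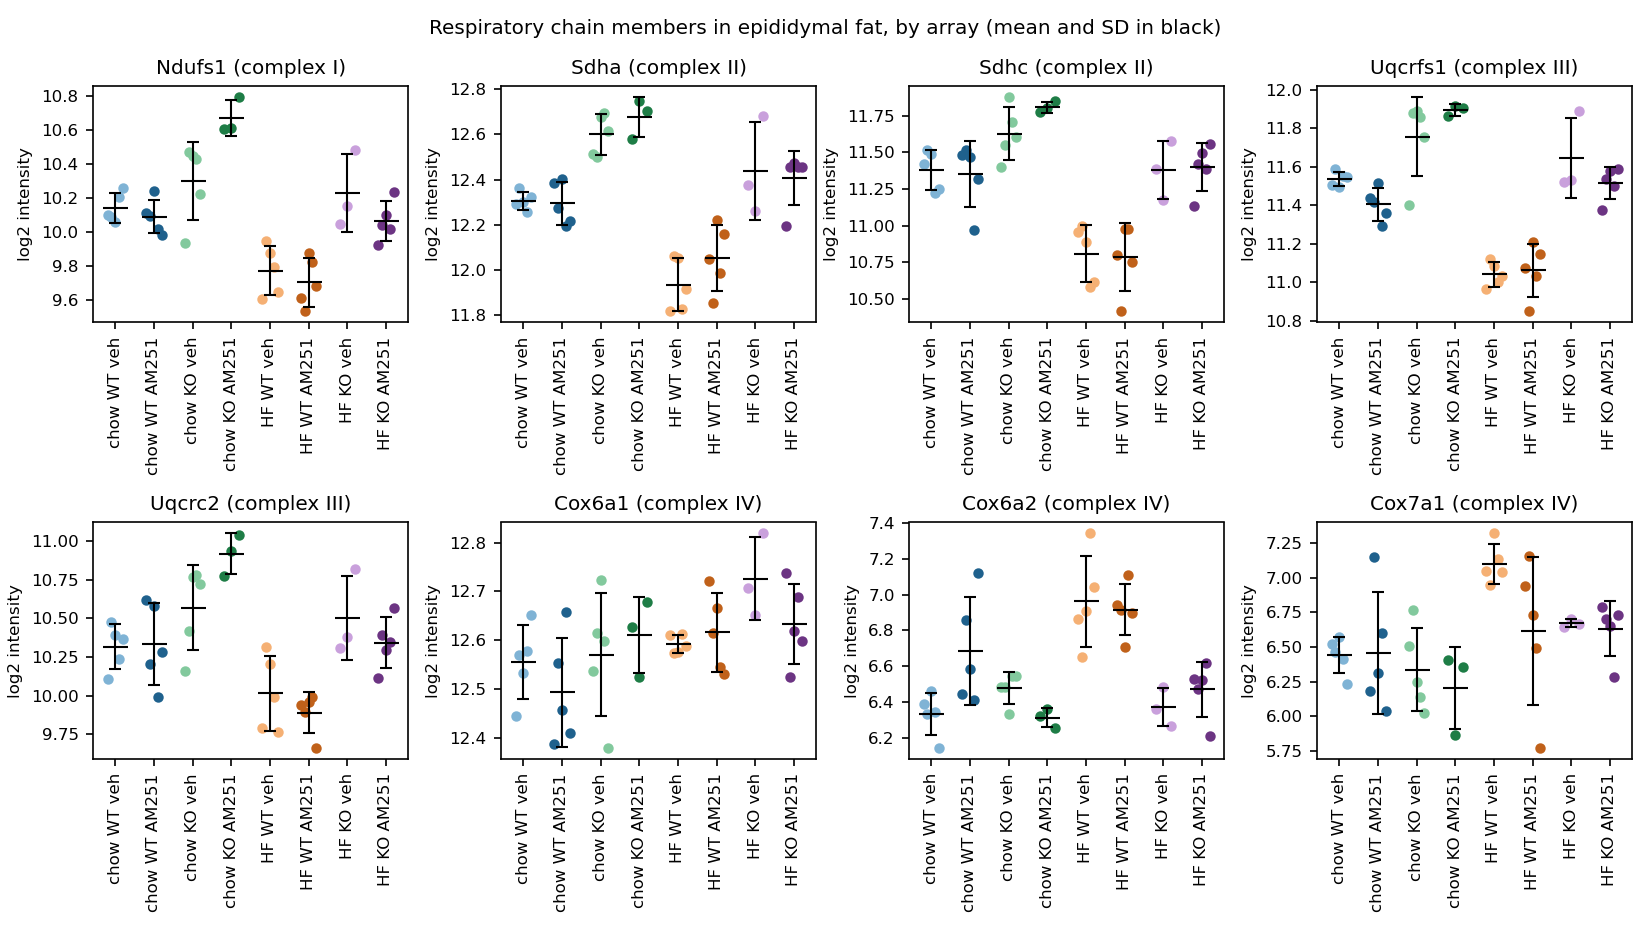
Log2 intensity (y axis) of 8 members on every fat array (points) in the 8 groups (x axis), with the group mean and SD in black. Ndufs1, Sdha, Sdhc, Uqcrfs1 and Uqcrc2 sat lowest in the high-fat wild-type groups, where Sdhc averaged 10.81 and 10.78, and highest in the chow knockout AM251 group, whereas Cox6a2 and Cox7a1 peaked at 6.96 and 7.10 in the high-fat wild-type vehicle group and Cox6a1 stayed between 12.38 and 12.82.

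Marker lists of other cell types moved with this comparison. Of 15 macrophage markers 14 rose, with a median change of 1.51, and their summed intensity ran from 7464 to 11286 on chow and from 16336 to 45997 on high fat. Of 10 adipocyte markers 4 fell and 1 rose (summed intensity 84110 to 88939 on chow and 74497 to 86605 on high fat). Of 10 mesothelial markers 5 fell, and of 11 fibroblast and matrix markers 5 rose. Summed intensities that did not overlap between the groups were also those of 11 hepatocyte markers (13126 to 15643 on chow and 3939 to 7639 on high fat, 2 rose and 3 fell), 11 lymphocyte markers (865 to 1005 and 1015 to 1469, 2 rose), 9 exocrine pancreas markers (774 to 1061 and 1466 to 2236, 1 rose) and 9 Kupffer cell markers (3029 to 4214 and 5273 to 8511, 4 rose). Of the 11 hepatocyte markers, 2 lay above the median gene in fat and 4 lay below 4.46, so their sum rests on few genes. Sums of the hepatocyte, exocrine pancreas and Kupffer cell lists do not show that such cells were present in fat. The part of the listed cell types in the changes of the members was not tested. In a bulk sample fewer cells of a type and less RNA per cell cannot be told apart. Beside the muscle isoforms, 3 of 12 skeletal muscle markers rose, led by Pvalb (1.51), while the summed intensity of the list was 900 to 4738 on chow and 966 to 1771 on high fat. The myosin genes Myh1, Myh2 and Myh4 were among the dimmest genes in fat, below 4.46 on average.

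Genes that work with these subunits were read from lists of related genes outside the members. Of 17 genes of the TCA cycle and pyruvate entry, 10 fell and 1 rose, with a median change of -0.36. They included Cs (citrate synthase, -0.64), Pcx (pyruvate carboxylase, -0.88) and Pdha1 (pyruvate dehydrogenase, -0.63). Of 13 other respiratory chain genes 2 fell, Cyc1 (cytochrome c1 of complex III, -0.54, adjusted p = 7.06e-05) and Gpd2 (mitochondrial glycerol-3-phosphate dehydrogenase, -1.72), and 0 rose. Of 11 ATP synthase genes 3 fell and 2 rose, with Atp5c1 (a subunit of the catalytic head) at -0.47 and Atpif1 (its inhibitor) at 0.75. Of 31 assembly factors 7 rose and 5 fell, and of 29 genes of protein import and cristae 5 rose and 2 fell. Of 20 regulators of mitochondrial biogenesis 9 fell and 1 rose, among them Tfam, the mitochondrial transcription factor (-0.59), and Nrip1, a corepressor (-1.42). Over all genes 12.1% rose and 12.4% fell in this comparison.

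The same diet contrast in wild-type mice on AM251 compares other arrays. Its standard errors still rest on the spread over all fat groups, these arrays included, so the tests are not independent. There 6 members passed, beside 9.55% of all genes (4.76% higher and 4.79% lower). Sdhc fell by 0.57 ± 0.115 (adjusted p = 0.00189), Uqcrfs1 by 0.34 ± 0.0815 (adjusted p = 0.00701), Ndufs1 by 0.38 ± 0.096 (adjusted p = 0.00975), Uqcrc2 by 0.45 ± 0.131 (adjusted p = 0.026) and Sdha by 0.24 ± 0.0792 (adjusted p = 0.0478), while Ndufa8 rose by 0.27 ± 0.0783 (adjusted p = 0.0244). The groups did not overlap for Uqcrfs1 and Ndufs1 and overlapped for the other members called. Ndufa8 rose and Ndufs1, Sdha, Sdhc and Uqcrfs1 fell under both treatments, which is 4 of the 7 members that fell on vehicle and 4 of the 5 that fell on AM251. Leaving out 1 array left 3 to 5 members that fell under both, with Ndufs1, Sdhc and Uqcrfs1 among them each time. Ndufa8 no longer rose under both without array 33, 34 or 36 of the high-fat or array 10, 13 or 14 of the chow AM251 group. Over all genes 3.71% rose in both and 3.74% fell in both. Cox6a2 and Cox7a1 read 0.23 and 0.16 here and did not pass (adjusted p = 0.221 and 0.686). Of the macrophage markers 8 of 15 rose (median 0.76), and the summed skeletal muscle markers ran from 930 to 1839 on chow and from 2203 to 3352 on high fat, with a part that was not tested. Without array 36, whose epididymis markers were high, 4 members passed, and without array 34 of the same group or array 10 of the chow group 3 did.

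In knockout fat on vehicle the high-fat diet changed 0 members at the threshold, beside 0.00522% of all genes (1 gene), and limma gave 2 members above and 0 below at an unadjusted p under 0.05. Without the share of all genes at that unadjusted threshold, the 2 are a description and no result about the members. Ndufb3, an accessory subunit of complex I, stood at 0.35 (unadjusted p = 0.0127) and Cox6a1 at 0.16 (unadjusted p = 0.0461). Sdha, Sdhc and Uqcrfs1 stood at -0.16, -0.25 and -0.11. In knockout fat on AM251, 3 members fell, beside 0.81% of all genes (0.512% lower): Ndufs1 by 0.61 ± 0.111 (adjusted p = 0.00408), Ndufs4, an accessory subunit needed for a stable complex I, by 0.48 ± 0.111 (adjusted p = 0.0281), and Uqcrfs1 by 0.38 ± 0.0941 (adjusted p = 0.0417). None of the 3 overlapped between the groups. With the mean of all probe sets Ndufs4 stood at -0.22 (adjusted p = 0.278). Beside these calls, the summed adipocyte markers ran from 79022 to 83653 on chow and from 84849 to 93075 on high fat (1 of 10 rose), the fibroblast and matrix markers from 36252 to 39689 and from 40579 to 43612 (1 of 11 rose), and the brown adipocyte markers from 1728 to 1979 and from 1438 to 1699 (1 of 14 fell). Their part was not tested. The calls rested on few arrays, with 0 left without array 23 of the 3 chow-fed AM251 knockouts and 1 without array 49 of the high-fat group.

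Whether the diet's effect on vehicle differed between genotypes was tested directly. 1 member passed, beside 6.34% of all genes (3.46% lower): the diet effect on Cox6a2 was lower in knockouts by 0.73 ± 0.173 (adjusted p = 0.0103). Cox6a2 read 6.48, 6.48, 6.33, 6.55 and 6.55 in chow-fed and 6.36, 6.48 and 6.27 in high-fat-fed knockouts, so the rise seen in wild-type fat had no counterpart in these values. For Uqcrfs1 the diet effect was higher in knockouts by 0.39 ± 0.124 (adjusted p = 0.0575), and for Sdhc by 0.32 ± 0.176 (adjusted p = 0.306), so the difference between genotypes did not pass for these members.

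The second question was how fat of CB1 knockouts differed from wild-type fat. On the high-fat diet with vehicle, all 4 complex II genes and the Rieske and core protein genes of complex III were higher in knockouts, and Cox6a2 was lower. 10 members were higher and 1 was lower, beside 15.9% of all genes (7.22% higher and 8.7% lower). This comparison shares the high-fat wild-type vehicle arrays with the diet comparison on vehicle, so an array that is low there moves both.

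Sdha read 11.82, 12.06, 12.05, 11.83 and 11.91 in wild-type and 12.38, 12.26 and 12.68 in knockout fat. The groups did not overlap, and Sdha was higher by 0.51 ± 0.0914 in knockouts (41.9%, adjusted p = 0.0002). Sdhc read 11.38, 11.18 and 11.58 in these knockouts, all above the wild-type arrays, a difference of 0.57 ± 0.133 (48.6%, adjusted p = 0.00263). Sdhb read 11.74, 11.81, 11.73, 11.53 and 11.62 in wild-type and 12.01, 11.78 and 12.31 in knockout fat, with overlap, a difference of 0.35 ± 0.116 (adjusted p = 0.0365). Sdhd read 10.97, 11.14, 11.13, 10.94 and 10.86 against 11.35, 11.19 and 11.54, without overlap, a difference of 0.35 ± 0.121 (adjusted p = 0.0447). The median over complex II was 0.43, against 0.13 for all members and -0.01 for all genes.

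Uqcrfs1 again had the smallest p. Its knockout values were 11.52, 11.53 and 11.89, all above the wild-type range of 10.97 to 11.12, a difference of 0.60 ± 0.0941 (52% higher, adjusted p = 4.12e-05). Uqcrc1 was higher by 0.36 ± 0.0878 (adjusted p = 0.00368) without overlap and Uqcrc2 by 0.49 ± 0.151 (adjusted p = 0.0233) with overlap. In complex I, Ndufs1 (10.05, 10.15 and 10.48 in knockouts) was higher by 0.45 ± 0.111 (adjusted p = 0.00397), Ndufc2 by 0.33 ± 0.108 (adjusted p = 0.0344) and Ndufb10 by 0.23 ± 0.0757 (adjusted p = 0.0356), where Ndufc2 and Ndufb10 are accessory subunits of the membrane arm. In complex IV, Cox6a2 was lower by 0.59 ± 0.131 on the log2 scale, a percent change of -33.5% (adjusted p = 0.0016), and its 3 knockout values of 6.36, 6.48 and 6.27 lay below all 5 wild-type values. Cox7a1 stood at -0.43 ± 0.217 (adjusted p = 0.205) and Cox6a1 at 0.13 (adjusted p = 0.261). The median over complex IV was 0.01.

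Of the macrophage markers 14 of 15 were lower in these knockouts (median -1.56), with summed intensities of 8090 to 8693, about those of chow-fed wild-type fat (7464 to 11286). Of the adipocyte markers 4 of 10 were higher and 1 lower, of the mesothelial markers 7 of 10 were higher, and of the fibroblast markers 5 of 11 were lower. The summed hepatocyte markers were 14310 to 18185 in knockouts against 3939 to 7639 (3 of 11 higher and 1 lower), the exocrine pancreas markers 867 to 1074 against 1466 to 2236 (1 of 9 lower) and the Kupffer cell markers 3487 to 3813 against 5273 to 8511 (3 of 9 lower). Beside Cox6a2, 2 of 12 skeletal muscle markers were lower, led by Pvalb (-1.42). As above, the hepatocyte, exocrine pancreas and Kupffer cell sums do not show that such cells were present in fat. The part of the listed cell types in the members' differences was not tested. Of the TCA list 12 of 17 genes were higher and 0 lower (median 0.44), with Cs at 0.62. Of the other chain genes 3 of 13 were higher (Cyc1 0.58, Gpd2 1.31 and Etfa 0.29) and 0 lower. Atp5c1 was higher (0.53) and Atpif1 lower (-0.79), and 6 of 20 biogenesis regulators were higher and 0 lower. With 3 knockout arrays the count of members depended on single arrays: 4 passed without array 44 of the knockouts and 7 without array 1, 5 or 6 of the wild-type mice.

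On the high-fat diet with AM251, in other mice, 12 members passed, beside 15.2% of all genes (8.19% higher and 6.99% lower). 9 were higher in knockouts: Sdhc by 0.62 ± 0.115 (adjusted p = 0.000416), Uqcrfs1 by 0.45 ± 0.0815 (adjusted p = 0.000295), Uqcrc2 by 0.45 ± 0.131 (adjusted p = 0.0154), Ndufa10 by 0.44 ± 0.099 (adjusted p = 0.00233), Uqcrc1 by 0.38 ± 0.0761 (adjusted p = 0.000806), Ndufs1 by 0.36 ± 0.096 (adjusted p = 0.00941), Sdha by 0.35 ± 0.0792 (adjusted p = 0.00216), Sdhb by 0.30 ± 0.101 (adjusted p = 0.0419) and Ndufb10 by 0.22 ± 0.0656 (adjusted p = 0.0202). 3 were lower: Cox6a2 (-0.44 ± 0.113, adjusted p = 0.00645), the accessory complex I subunit Ndufa3 (-0.28 ± 0.0932, adjusted p = 0.0339) and Ndufa8 (-0.24 ± 0.0783, adjusted p = 0.0324). The groups overlapped for Sdha, Ndufa10, Ndufa3 and Ndufa8 and for none of the others. Cox6a2 read 6.94, 6.92, 6.71, 7.11 and 6.90 in wild-type and 6.53, 6.47, 6.52, 6.62 and 6.21 in knockout fat, so all 5 knockouts lay below all 5 wild-type mice. Of the macrophage markers 13 of 15 were lower (median -0.81). Of the skeletal muscle markers 2 of 12 were lower, and their sums were 1307 to 2057 in knockouts against 2203 to 3352. Their part was not tested. Without array 36, 9 members passed.

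On chow with vehicle, limma called 0 members, beside 0.0575% of all genes (11 genes), with 9 members higher and 0 lower at an unadjusted p under 0.05. The share of all genes at that unadjusted threshold is not given here, so the 9 are a description and no result about the members. All 4 complex II genes were among the 9, at 0.29 for Sdha, 0.25 for Sdhc, 0.24 for Sdhb and 0.23 for Sdhd, with adjusted p from 0.175 for Sdha to 0.517 for Sdhc. Sdha read 12.29, 12.36, 12.30, 12.25 and 12.32 in wild-type and 12.51, 12.50, 12.68, 12.70 and 12.62 in knockout fat, so its groups did not overlap although the adjusted test missed the threshold. Ndufb11, an accessory subunit of complex I, followed at 0.25 (adjusted p = 0.306). Macrophage markers stood at a median of -0.06 with 0 of 15 called, and summed to 7404 to 9642 in knockouts. None of the members' differences on chow with vehicle held after adjustment.

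On chow with AM251, 14 members were higher in knockouts and 0 lower, beside 3.39% of all genes (1.98% higher). They were 6 of complex I, 3 of complex II, 4 of complex III and 1 of complex IV, and the median difference was 0.26, 0.42, 0.35 and -0.07 in that order. Ndufs1 read 10.11, 10.09, 10.24, 10.02 and 9.98 in wild-type and 10.60, 10.61 and 10.79 in knockout fat, a difference of 0.58 ± 0.111 (adjusted p = 0.00219). The 3 knockout arrays lay well above all wild-type arrays. Uqcrc2 read 10.62, 10.20, 10.58, 9.99 and 10.28 against 10.78, 10.93 and 11.04, a difference of 0.58 ± 0.151 (adjusted p = 0.026). Uqcrfs1 read 11.44, 11.42, 11.52, 11.29 and 11.36 against 11.86, 11.92 and 11.91, a difference of 0.49 ± 0.0941 (adjusted p = 0.0022). Neither pair of groups overlapped.

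Further members called in this comparison were Ndufs8, an iron-sulphur core subunit of complex I (0.49 ± 0.134, adjusted p = 0.0353), Ndufb10 (0.33 ± 0.0757, adjusted p = 0.0103), Sdhb (0.47 ± 0.116, adjusted p = 0.0187), Sdhc (0.46 ± 0.133, adjusted p = 0.0495), Sdha (0.38 ± 0.0914, adjusted p = 0.0144) and Uqcrq, a small subunit of complex III (0.46 ± 0.101, adjusted p = 0.00678). Sdha read 12.39, 12.27, 12.40, 12.19 and 12.21 in wild-type and 12.58, 12.75 and 12.71 in knockout fat. Sdhb read 11.87, 12.05, 11.97, 11.40 and 11.80 against 12.21, 12.27 and 12.39, again without overlap. The dim gene Cox7b also passed (0.51 ± 0.14, adjusted p = 0.0367) and is among the dimmest genes. Cox6a2 stood at -0.37 ± 0.131 (adjusted p = 0.113) and Cox7a1 at -0.25 (adjusted p = 0.57). Of the macrophage markers 0 of 15 passed, with a median of -0.42 and summed intensities of 9728 to 13750 in wild-type and 7493 to 9082 in knockout fat. Other summed markers also lay apart, each lower in knockouts: adipocyte (86485 to 91519 in wild-type and 79022 to 83653 in knockout fat, 1 of 10 higher and 2 lower), fibroblast and matrix (41514 to 47175 and 36252 to 39689, 1 of 11 lower), endothelial (16662 to 17896 and 13715 to 16531, 0 of 15 called), mesothelial (6392 to 6951 and 4295 to 6313, 1 of 10 lower) and Kupffer cell markers (4186 to 6208 and 3259 to 4081, 0 of 9 called). The Kupffer cell list does not show such cells in fat, and the part of the listed cell types was not tested.

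In the same comparison 10 of 17 TCA genes were higher and 0 lower (median 0.45), with Pdhb, a subunit of pyruvate dehydrogenase, at 1.07. Ppargc1a and Ppargc1b, the PGC-1 coactivators of mitochondrial genes, were higher by 0.79 and 0.90, and 3 of 20 biogenesis regulators passed in all, all higher. Of 14 brown adipocyte markers 3 were higher (Cox8b 1.29, Cidea 1.21 and Ppargc1a) and 0 lower, with sums of 1183 to 1450 in wild-type and 1728 to 1979 in knockout fat. The count of members depended on the knockout arrays, with 8, 5 and 2 called when array 20, 21 or 23 was left out, 7 or 9 without wild-type array 13 or 14, and 2 when only the 2 groups compared entered the fit.

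The 3 genotype comparisons in fat in which members passed compare different arrays, but each takes its spread from all fat groups. The comparison on chow with vehicle was left out because no member passed there. The count of members shared by the 3 is therefore a description and no test. 8 members were higher in knockouts in all 3: Sdha, Sdhb, Sdhc, Uqcrc1, Uqcrc2, Uqcrfs1, Ndufs1 and Ndufb10, named together after their values were seen. Uqcrc1 was higher by 0.35 ± 0.0878 on chow with AM251 (adjusted p = 0.02). Of all genes, 119 (0.622%) were higher in all 3. 0 members were lower in all 3, against 26 genes (0.136%). The 8 hold 3 of the 4 complex II genes and 3 of the 7 complex III genes, and none of complex IV. The complex II part depended on the processing. With the mean of all probe sets the list held 6, without Sdha and Sdhc. With each array centred on its median it held 6, without Sdhb and Ndufb10. The list rested on single arrays: leaving out array 44 of the high-fat vehicle knockouts left 3 (Sdha, Sdhc and Uqcrfs1), and leaving out array 20, 21 or 23 of the chow AM251 knockouts left 5, 3 or 2. It held 5 without array 6 of the high-fat wild-type vehicle or array 13 of the chow wild-type AM251 mice. Uqcrfs1 was on the list whichever array was left out, and it and Ndufs1 were the 2 members left when only the compared groups entered each fit.

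**Figure D3:**
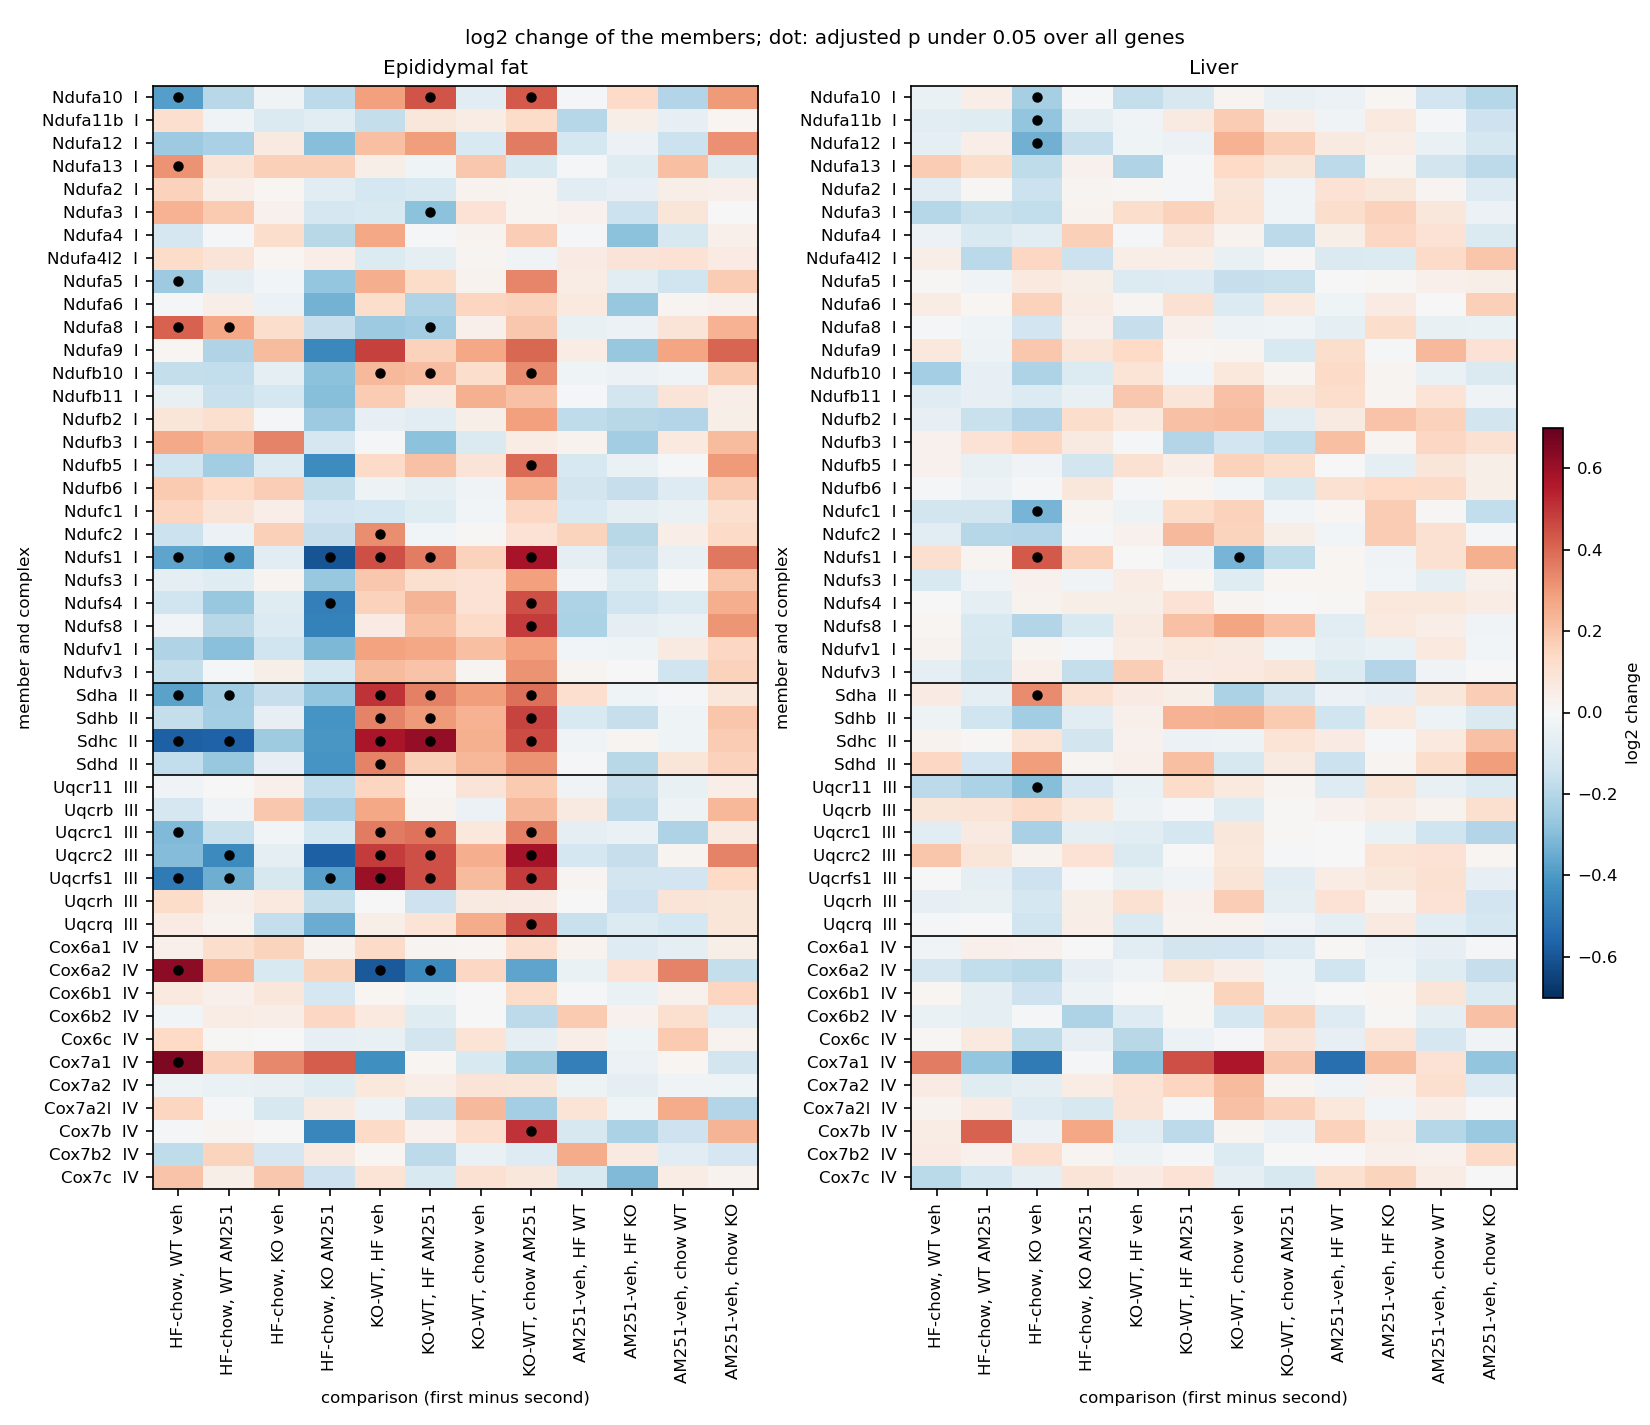
Log2 change of the 48 members (rows, by complex) in 12 comparisons each in fat and liver (columns), from blue for lower to red for higher, with a dot where the adjusted p was under 0.05. In fat the dots gather in the diet columns of wild-type mice and in the knockout columns other than chow vehicle, the columns of AM251 against vehicle hold none, and liver holds 8 dots in all.

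AM251 against vehicle was tested in each tissue, diet and genotype, and limma called 0 members in all 8 comparisons. Few genes of any kind passed. In fat the share of all genes called was 1.11% in high-fat wild-type mice, 0% in high-fat knockouts, 0% in chow wild-type mice and 0.0157% in chow knockouts. The members above and below at an unadjusted p under 0.05 were 1 and 2, 0 and 3, 4 and 3, and 12 and 0 in that order. In liver the shares were 1.91%, 0.0104%, 0% and 0.125%, and the members above and below at an unadjusted p under 0.05 were 1 and 2, 0 and 1, 0 and 0, and 6 and 4. These shares are those at the adjusted threshold. Without the shares of all genes at the unadjusted one, the counts in fat and liver are descriptions and no result about the members.

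The members with the smallest p in each fat comparison did not pass either. In high-fat wild-type fat, Cox7b2 stood at 0.26 (adjusted p = 0.125) and Cox7a1 at -0.48 ± 0.188 (adjusted p = 0.232). The Cox7a1 arrays on AM251 read 6.94, 7.16, 6.73, 6.49 and 5.77 against 6.95 to 7.32 on vehicle, so 1 array lay well below the rest. In chow wild-type fat Cox6a2 stood at 0.35 ± 0.113 (adjusted p = 0.208) and Uqcrc1 at -0.22 (adjusted p = 0.239). In chow knockouts Ndufs1 stood at 0.37 ± 0.111 (adjusted p = 0.417) and Ndufa8 at 0.24 (adjusted p = 0.503). There 41 of the 48 members lay above 0, with medians of 0.17 for complex I, 0.17 for complex II, 0.09 for complex III and -0.03 for complex IV, against -0.03 for all genes. In high-fat knockouts Ndufa6 and Ndufa4 stood at -0.26 and -0.28 (adjusted p = 0.999). With no call, none of these differences stood beyond the spread between arrays after adjustment.

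In liver the smallest p belonged to Ndufa13 (-0.18, adjusted p = 0.295) and Cox7a1 (-0.53 ± 0.236, adjusted p = 0.366) in high-fat wild-type mice and to Ndufs1 (0.25, adjusted p = 0.164) and Ndufa10 (-0.20, adjusted p = 0.173) in chow knockouts. AM251 did lower 2 of 17 TCA genes in high-fat wild-type liver, Cs (-0.73 ± 0.113, adjusted p = 8.05e-05) and Dlat, a subunit of pyruvate dehydrogenase (-0.77 ± 0.157, adjusted p = 0.00272). The genotype difference of the AM251 effect on the high-fat diet also held 0 members, in liver (0.564% of all genes) and in fat (0.407%). At an unadjusted p under 0.05, 0 members were above and 1 below in liver, and 3 above and 0 below in fat. These counts also stand without the share of all genes and are descriptions.

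Liver gave few calls for genotype or diet. In wild-type liver on vehicle the high-fat diet changed 0 members, beside 1.69% of all genes, with 1 above and 2 below at an unadjusted p under 0.05. The counts at the unadjusted threshold are descriptions, as the share of all genes there is not given. Sdha read 12.38, 12.27, 11.85, 12.26 and 12.30 on chow and 12.18, 12.24, 12.35, 12.26 and 12.32 on high fat, with full overlap. On AM251 the diet changed 0 members in wild-type (1.96% of genes) and knockout liver (2.64% of genes). The genotype tests gave 0 members on high fat with vehicle (1.19%), on high fat with AM251 (2.3%) and on chow with AM251 (0.324%).

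2 comparisons with the chow-fed knockout vehicle livers did give calls. Ndufs1 read 10.46, 10.25, 10.04, 10.40 and 10.42 in wild-type and 9.74, 9.86, 10.19, 10.21 and 9.95 in knockout liver on chow. The groups overlapped, and Ndufs1 was the 1 member called, lower by 0.32 ± 0.0815 in knockouts, a percent change of -20.1% (adjusted p = 0.011, beside 6.77% of all genes, 3.83% lower). Kupffer cell markers, of which 4 of 9 were higher there with a median of 0.62, moved beside it, and their part was not tested. Without arrays 15 and 17, which correlated least with the other livers, 0 members were called.

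Between high-fat and chow knockout livers on vehicle, 2 members rose and 5 fell, beside 17% of all genes (8.63% higher and 8.36% lower). Ndufs1 read 10.52, 10.31, 10.48 and 10.38 on high fat, above every chow array, a rise of 0.43 ± 0.0865 (adjusted p = 0.000653). Sdha read 11.88, 11.92, 12.06, 12.08 and 12.01 on chow and 12.37, 12.29, 12.30 and 12.34 on high fat, a rise of 0.33 ± 0.0777 with no overlap (adjusted p = 0.00289). The members that fell were Ndufa12 (-0.33 ± 0.0908, adjusted p = 0.00973), Ndufc1 (-0.33 ± 0.101, adjusted p = 0.0225), Uqcr11 (-0.30 ± 0.0981, adjusted p = 0.033), the paralog Ndufa11b (-0.28 ± 0.0929, adjusted p = 0.0353) and Ndufa10 (-0.23 ± 0.0712, adjusted p = 0.0228). Summed markers that lay apart were those of stellate cells (872 to 1388 on chow and 1626 to 2093 on high fat, 1 of 8 rose), fibroblasts and matrix (2882 to 3592 and 3965 to 5473, 2 of 11 rose), mesothelium (4979 to 9040 and 3696 to 4915, 2 of 10 fell) and skeletal muscle (359 to 377 and 322 to 335, 0 of 12 called), and their part was not tested. With arrays 15 and 17 left out, 2 members rose and 0 fell. The split depended on scaling, with 3 members up and 1 down when each array was centred on its median and 2 up and 11 down after quantile normalization, and the share of all called genes that were higher moved from 50.8% to 70.5% and 39.8%.

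Whether the diet acted differently in fat and liver of wild-type mice on vehicle was tested as fat minus liver. 9 members passed, beside 14.2% of all genes (6.85% higher and 7.37% lower). The change in fat was lower than in liver for Sdhc (-0.60 ± 0.137, adjusted p = 0.00127), Uqcrc2 (-0.50 ± 0.176, adjusted p = 0.0472), Uqcrfs1 (-0.49 ± 0.101, adjusted p = 0.000303), Ndufs1 (-0.48 ± 0.124, adjusted p = 0.00438), Sdha (-0.43 ± 0.104, adjusted p = 0.00224) and Ndufa10 (-0.34 ± 0.116, adjusted p = 0.0373). It was higher for Cox6a2 (0.75 ± 0.144, adjusted p = 0.000126), Ndufa3 (0.44 ± 0.13, adjusted p = 0.0136) and Ndufa8 (0.42 ± 0.104, adjusted p = 0.00257). All of these members except Uqcrc2 and Ndufa3 were also called in the fat comparison itself, whose arrays they share. In liver the diet-by-genotype difference on vehicle held 0 members (4.17% of all genes), with Ndufa13 at -0.35 (adjusted p = 0.0535) and 2 members above and 3 below at an unadjusted p under 0.05. Those unadjusted counts are descriptions without the share of all genes.

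Liver and fat themselves were compared in wild-type mice on vehicle. Most genes differed between the tissues and the array scaling set the direction of many: as deposited, the median gene was 0.50 lower in liver on chow, and 79.4% of genes were called (12.4% higher and 67% lower). 19 members were higher in liver and 17 lower as deposited, 42 higher and 2 lower with each array centred, and 30 higher and 5 lower after quantile normalization. 19 members were higher in liver under all 3 scalings and 2 were lower. The share of all genes that kept their direction under all 3 is not given here, so these counts are descriptions. The 19 were 11 of complex I, Sdhb and Sdhd of complex II, 5 of complex III and Cox7c of complex IV.

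Ndufa6, an accessory subunit of complex I, ran from 11.63 to 11.67 in chow-fed livers and from 10.74 to 10.90 in fat, 0.80 higher in liver as deposited and 1.30 relative to the median gene. Cox7c and Uqcrq, small subunits of complexes IV and III, were higher by 0.73 and 0.72, Ndufb5 by 0.68, Ndufb10 by 0.59, Sdhd by 0.57 and Sdhb by 0.56. Ndufa4l2, a hypoxia-responsive paralog of Ndufa4, was the member with the largest difference. Its values were 5.24 to 5.60 in livers and 8.46 to 8.66 in fat samples, lower in liver by 3.07 ± 0.0932 on the log2 scale as deposited, and the difference was -2.57 relative to the median gene. The testis-type paralog Cox6b2 was also lower in liver under all 3 scalings, with a difference of -1.27 as deposited. Cox7a1 was lower by 1.09 ± 0.221 as deposited and did not pass under either other scaling (adjusted p = 0.113 and 0.353).

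On the high-fat diet 36 members again differed between the tissues, 21 higher and 15 lower in liver, beside 82.9% of all genes (11.4% higher and 71.4% lower). Under all 3 scalings 21 were higher and 3 lower (Ndufa4l2, Cox6b2 and Ndufb3), again a description without the share of all genes. The 21 included all 4 complex II genes. Sdhc was 0.06 higher in liver on chow (adjusted p = 0.585) and 0.65 higher on high fat (adjusted p = 1.13e-08), and Uqcrfs1 was 0.21 and 0.71 higher, differences that the test of fat minus liver above compares.

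**Figure D4:**
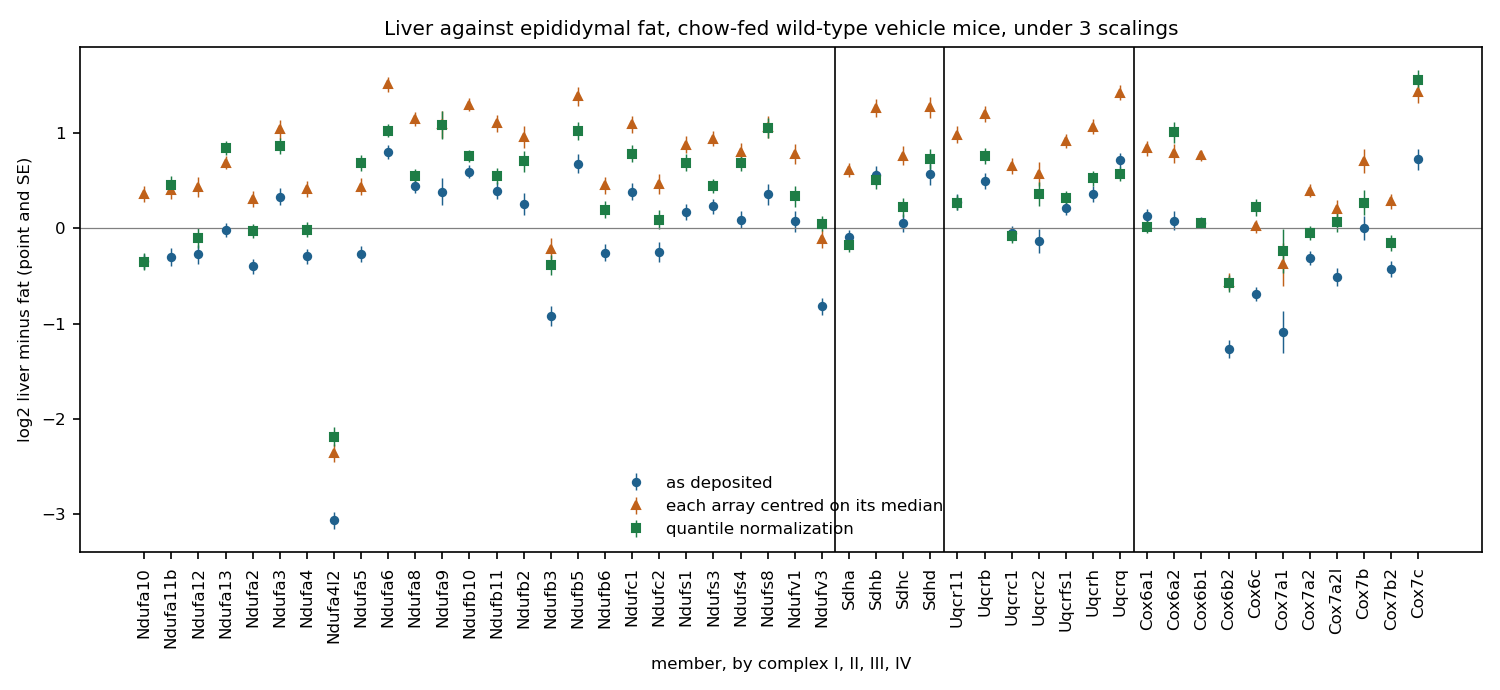
Log2 difference of liver minus fat (y axis, point and SE) for the 48 members by complex (x axis) in chow-fed wild-type mice on vehicle, as deposited (circles), with each array centred on its median (triangles) and after quantile normalization (squares). Ndufa4l2 lay between -3.07 and -2.19 under the 3 scalings, while Ndufa6 lay between 0.80 and 1.51.

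4 members have further, dimmer probe sets, which were read in fat. The 2 dimmer probe sets of Sdha (mean 9.62 and 5.67) stood at 0.13 and -0.23 for the diet in wild-type fat on vehicle (adjusted p = 0.683 and 0.227), so neither passed as the brightest did. In the high-fat genotype comparison on vehicle, these 2 stood at 0.52 and 0.27 (adjusted p = 0.105 and 0.275). Ndufs4 went the other way: its second probe set (mean 7.08) fell by 0.51 ± 0.123 with the diet (adjusted p = 0.00203), while the brightest stood at -0.14 (adjusted p = 0.32). In knockout fat on AM251, where the brightest fell, it stood at -0.20 (adjusted p = 0.588). The second probe set of Uqcrq (mean 4.37) stood at -0.21 in the chow AM251 genotype comparison, where the brightest was higher by 0.46. With the mean of all probe sets in place of the brightest, Uqcrq did not pass in that comparison (0.13, adjusted p = 0.261). Nor did Sdha there (0.38, adjusted p = 0.089), in the high-fat AM251 genotype comparison (0.25, adjusted p = 0.129), or for the diet in wild-type fat on vehicle (-0.16, adjusted p = 0.322) and on AM251 (-0.10, adjusted p = 0.643). The difference of Sdha's diet change between fat and liver did not pass either (-0.26, adjusted p = 0.269).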

How the data were processed

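The authors deposited 1 linear intensity for each probe set and array, made with RMA, per the submitters' processing notes, whose version is not given in the sources used here. Of 38385 probe sets, 24478 had 1 gene symbol, 65 had several and were left out, and for each of 19147 genes the brightest probe set of a tissue, by its mean, was used. The 48 members have 54 probe sets, all with 1 symbol.

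Log2 intensity was fitted in R 4.3.3 with limma 3.58.1 and the data.table package (version 1.17.8), with a mean per group over all groups of a tissue, or all 16 groups for tissue differences. Two-sided moderated tests of 31 contrasts were adjusted over all genes by the Benjamini-Hochberg method at 0.05. Counts of members at an unadjusted p under 0.05 stand without the share of all genes at that threshold and are descriptions. The fit was tested on simulated data. The labels give each array as a separate sample, and p-values measure the spread between these samples, so the number of arrays limits the precision.

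The members, gene lists and tests were chosen with earlier results of these data known. Named genes are every member called where there were at most 12, otherwise the 6 largest in each direction and the 2 with the smallest p per complex, the 2 with the smallest p where none was called, the Sdh genes and the Cox6a, Cox6b and Cox7a families, the 4 widest members per tissue, and up to 3 called genes per other list. Genes carried from one comparison to another were chosen after their values were seen. Alternatives were centring, quantile normalization, the mean of all probe sets, a filter on dim genes (below 3.92 in liver or 4.46 in fat), array weights, only the groups compared, each array left out, and a replicate block; leaving out 2 liver arrays and reading further probe sets were added after seeing the data. Array numbers did not pair samples: the correlation of deviations between same-numbered wild-type vehicle arrays of the 2 diets ran from -0.128 to 0.0572 in fat and from -0.167 to 0.217 in liver. Liver and fat arrays of a group share numbers and may come from the same mice, which the labels do not state. Their deviations correlated between -0.126 and 0.203 (consensus 0.0387), and the tests between tissues treat them as independent.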

Additional observations from a re-analysis of the deposited data

Results flagged for a closer look

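Of 166 groups of values checked, 13 held a highest or lowest array that stood apart by Dixon's criterion, and chance gives about 1 in 20. In fat these were Sdha on array 45 of high-fat knockouts on AM251 (12.19), Uqcrfs1 on array 15 (11.40) and Ndufa10 on array 19 (11.95) of chow knockouts on vehicle, Ndufa8 on array 37 of high-fat wild-type mice on AM251 (11.49), Cox7a1 on array 49 of high-fat knockouts on AM251 (6.29), and the complex II deviation on array 2 of chow wild-type mice on vehicle (0.14). In liver, array 17 of chow knockouts on vehicle stood apart in Cox7a1 (7.51), in the median deviation of all members (0.29) and in that of complex III (0.32). Array 3 of chow wild-type livers on vehicle stood apart in Sdha (11.85) and in the complex II deviation (-0.25), and array 41 of high-fat knockout livers on vehicle in the median of all members (-0.10) and of complex I (-0.13).

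10 effects of the diet differed between groups by a test of the difference itself with limma, adjusted over all genes. Of all genes, 6.34% were called for the genotype difference in fat on vehicle. For the tissue difference in wild-type mice on vehicle, 14.2% of all genes were called. Whether the members exceeded these shares was not tested, so the 10 are a description. The effect on Cox6a2 in fat differed between genotypes (knockout minus wild-type -0.73, adjusted p = 0.0103). Between tissues (fat minus liver, wild-type vehicle) the effect differed for Cox6a2 (0.75), Ndufa3 (0.44), Ndufa8 (0.42), Ndufa10 (-0.34), Sdha (-0.43), Ndufs1 (-0.48), Uqcrfs1 (-0.49), Uqcrc2 (-0.50) and Sdhc (-0.60), with adjusted p from 0.000126 for Cox6a2 to 0.0472 for Uqcrc2.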

How the results depend on the processing

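Of 147 calls of single members, 64 held under every setting run, and of the 66 within a tissue 20 did. The members higher in knockout fat in all 3 comparisons (8) were 2 with only the compared groups and 2 to 8 with 1 array left out; the members that fell with the diet in wild-type fat under both treatments (4) were 2 with the replicate block and 3 to 5 with 1 array left out, and those that rose (1) were 2 with array weights, 0 with only the compared groups, 0 with the block and 0 to 1 with 1 array left out. In fat, the count of members for the diet in knockouts on AM251 (3) was 8 centred, 6 after quantile normalization, 13 with array weights and 5 with only the compared groups; that for genotype on chow with AM251 (14) was 2, and for diet in wild-type mice on AM251 (6) was 3, with only the compared groups; the genotype difference of the diet effect (1) was 2 without the dimmest genes and 2 with only the compared groups. In liver, the diet in knockouts on vehicle (7) gave 4 centred, 13 after quantile normalization, 4 with array weights, 0 with only the compared groups and 2 without arrays 15 and 17; genotype on chow with vehicle (1) gave 0 with only the compared groups and 0 without arrays 15 and 17. 1 member in place of 0 was called for diet in wild-type mice on vehicle after quantile normalization, for the genotype difference of the diet effect after quantile normalization, with the mean of all probe sets and without the dimmest genes, for genotype on high fat with AM251 with array weights, for diet in wild-type mice on AM251 with array weights or only the compared groups, and for AM251 in high-fat wild-type mice with only the compared groups. With the replicate block the diet in wild-type fat on vehicle gave 4 in place of 11; the array numbers share no more than a number, and between tissues the block left 36, 36 and 9 calls, as without it. Leaving out 1 array gave, in fat, 10 to 14 for diet in wild-type mice on vehicle and 3 to 8 on AM251, 0 to 4 for diet in knockouts on AM251, 4 to 12, 8 to 14 and 2 to 14 for genotype on high fat with vehicle, high fat with AM251 and chow with AM251, 1 to 3 for the genotype difference of the diet effect and 0 to 1 for AM251 in high-fat wild-type mice. In liver it gave 1 to 4 for genotype on chow with vehicle, 3 to 9 for diet in knockouts on vehicle, 0 to 2 for the genotype difference of the diet effect and 0 to 1 for AM251 in chow knockouts; between tissues it gave 35 to 36 on chow, 33 to 35 on high fat and 7 to 9 for the difference of the diet effect. Reversed signs between liver and fat were those of Cox6c (0.0238 centred and 0.22 after quantile normalization on chow, 0.0321 after quantile normalization on high fat) and Ndufv3 (0.0511 on chow and 0.13 on high fat after quantile normalization). The cause was not tested. Groups of 3 arrays and probe sets near background limit what could be called.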
